A study of Mus musculus with 10 samples.

Results

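The fibulins and their partners in elastic fibres were followed through pancreatic islets of young Men1 heterozygous mice and wildtype littermates. The members were chosen by gene symbol: the fibulin genes Fbln1, Fbln2, Fbln5, Efemp1 and Efemp2, the elastin gene Eln, the fibrillin gene Fbn1, and the microfibril genes Mfap2, Mfap4 and Mfap5. Of these 10 genes, 8 had a probe set under their own symbol, 15 probe sets in all. The series holds 45037 probe sets without controls, and those with a single symbol name 18193 genes. Fbn1 and Efemp2 had no probe set under their symbol in the annotation used and were not analysed here. Only probe sets that exceeded 4 (log2) in 5 or more of the 10 mice were compared between genotypes, and 7 probe sets of 6 genes met this: Fbln1, Fbln2, Fbln5, Efemp1, Eln and Mfap2. Because the members were picked with earlier results of these mice known, their genotype differences are given as a description.

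Islets came from 10 female mice aged 5 weeks, of C57 strain on a 129 background: 5 were heterozygous for Men1 and 5 were wildtype littermates. Men1 encodes the tumour suppressor menin; which part of the allele was altered was not stated in the labels. About 100 islets of a mouse were pooled into 1 RNA sample and run on 1 array, so each replicate is a separate mouse. The mice were housed normally, and no treatment is named for either group.

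Elastic fibres give tissues recoil. Tropoelastin, the product of Eln, is laid down on a scaffold of fibrillin microfibrils and crosslinked by lysyl oxidases, and fibulins bring these parts together. In the pancreas such genes are known chiefly from fibroblasts, mural cells and vessel walls, not from endocrine cells.

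The upstream sequences of the members that could be compared are shown because 5 of those 6 genes varied together from mouse to mouse, as described further on, while the sixth, Mfap2, did so less closely. For each gene the 250 bases before its outermost RefSeq start are given 5′ to 3′ on the gene's own strand, from GRCm38.p6: Fbln1 at chr15:85205699-85205948 (plus strand), Fbln2 at chr6:91212514-91212763 (plus strand), Fbln5 at chr12:101819120-101819369 (minus strand), Efemp1 at chr11:28852955-28853204 (plus strand) and Mfap2 at chr4:141010174-141010423 (plus strand). These windows lie outside the transcripts that begin at those starts. Of the 10 members, 7 had a window; Eln, Mfap4 and Mfap5 had none in the table used. Capitals mark every match to 5 motifs searched on both strands: the GC box GGGCGG, the TATA box TATAAA, the AP-1 motif TGANTCA, the TEAD motif CATTCC and the E-box CACGTG.
Fbln1: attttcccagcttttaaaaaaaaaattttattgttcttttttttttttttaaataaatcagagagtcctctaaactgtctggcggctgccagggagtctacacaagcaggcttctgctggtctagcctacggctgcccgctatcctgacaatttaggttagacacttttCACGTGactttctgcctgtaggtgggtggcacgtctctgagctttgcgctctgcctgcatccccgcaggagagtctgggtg
Fbln2: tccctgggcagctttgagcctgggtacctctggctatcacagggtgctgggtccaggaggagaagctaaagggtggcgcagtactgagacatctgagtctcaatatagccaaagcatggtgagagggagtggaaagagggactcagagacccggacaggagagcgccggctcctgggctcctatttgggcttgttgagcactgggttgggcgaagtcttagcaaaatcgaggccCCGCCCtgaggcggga
Fbln5: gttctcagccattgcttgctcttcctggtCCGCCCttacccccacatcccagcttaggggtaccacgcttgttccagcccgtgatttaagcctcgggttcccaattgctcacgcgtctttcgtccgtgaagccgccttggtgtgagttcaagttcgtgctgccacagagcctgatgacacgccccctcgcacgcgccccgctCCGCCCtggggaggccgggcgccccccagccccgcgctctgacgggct
Efemp1: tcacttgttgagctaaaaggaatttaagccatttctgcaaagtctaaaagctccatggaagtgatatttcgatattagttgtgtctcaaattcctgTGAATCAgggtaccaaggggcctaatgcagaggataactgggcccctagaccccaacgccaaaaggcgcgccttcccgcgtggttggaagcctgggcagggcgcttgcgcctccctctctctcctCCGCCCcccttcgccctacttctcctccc
Mfap2: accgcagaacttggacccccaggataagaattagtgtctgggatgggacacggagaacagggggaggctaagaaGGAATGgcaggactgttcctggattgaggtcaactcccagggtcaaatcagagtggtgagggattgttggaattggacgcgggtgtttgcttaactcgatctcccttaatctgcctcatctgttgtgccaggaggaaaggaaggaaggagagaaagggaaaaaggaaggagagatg
The GC box stood in the windows of Fbln2, Fbln5 (2 matches) and Efemp1, where 33.0% of 27025 genes with a window held it. Fbln1 held an E-box (6.04% of genes), Efemp1 an AP-1 motif (6.85%) and Mfap2 a TEAD motif (12.6%), and none of these 5 windows held the TATA box (13.0%). No motif was common to the 4 fibulin genes, and matches to different motifs did not overlap in the printed windows. GC content ran from 46.4% for Fbln1 to 65.2% for Fbln5, around a median of 52.0% over all genes. A match or its absence describes letters in a window and says nothing about a factor.

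The fibulins were lower on average in heterozygous islets, but with a wide spread. Fbln5, whose product binds elastin and lysyl oxidase-like enzymes and is needed for elastic fibre assembly, was measured by probe set 1416164_at. The wildtype mice stood at 8.71, 9.40, 9.18, 8.92 and 8.64, and the heterozygous mice at 7.00, 7.23, 7.29, 9.08 and 8.42 (log2, mice 1 to 5). Of these, 4 of the 5 heterozygous mice lay below every wildtype mouse, and heterozygous mouse 4 lay inside the wildtype range, so the groups overlap. The wildtype mean was 8.97 ± 0.32 and the heterozygous mean 7.80 ± 0.90 (SD, n = 5 each), a difference of -1.17 (SE 0.37) or 44.5% of the wildtype level (95% interval 25.1% to 78.8%). Here and for the genes that follow, fewer cells of a type in the islets and less RNA per cell cannot be told apart. The other Fbln5 probe set, 1446377_at, lay at background, at most 2.23 on every array.

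Fbln1, a fibulin of basement membranes and elastic fibres, showed the same arrangement with probe set 1451119_a_at. Wildtype mice stood at 6.50, 7.41, 6.40, 6.18 and 6.17, and heterozygous mice at 5.41, 5.62, 4.34, 6.57 and 5.63. Again the same 4 heterozygous mice lay below all wildtype mice and mouse 4 among them, while wildtype mouse 2 was the highest of all. The means were 6.53 ± 0.51 and 5.51 ± 0.80, a difference of -1.02 (SE 0.37), or 49.4% of the wildtype level (95% interval 28.1% to 87.0%). Its 2 other probe sets, 1422540_at and 1439688_at, lay at background, between 2.17 and 3.32 on every array.

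Efemp1, which encodes fibulin-3, overlapped more. Its probe set 1427183_at gave 7.77, 9.18, 8.40, 8.16 and 8.11 in wildtype and 6.77, 8.09, 6.59, 8.66 and 7.63 in heterozygous mice. Here 3 heterozygous mice lay below every wildtype mouse, and mice 2 and 4 did not. The difference was -0.77 (SE 0.40) between means of 8.32 ± 0.53 and 7.55 ± 0.87, or 58.6% of the wildtype level (95% interval 31.8% to 107.7%).

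Fbln2, an extracellular scaffold protein of vessel walls and basement membranes, had the smallest difference among the fibulins measured. Probe set 1423407_a_at stood at 7.62, 7.89, 7.70, 8.24 and 7.13 in wildtype and 6.96, 6.99, 6.56, 8.01 and 7.42 in heterozygous mice. Heterozygous mice 1, 2 and 3 lay below all wildtype mice, mouse 5 and mouse 4 among them. The difference was -0.53 (SE 0.27), or 69.3% of the wildtype level (95% interval 45.8% to 105.0%), between means of 7.72 ± 0.40 and 7.19 ± 0.55. A second Fbln2 probe set, 1438375_at, lay within 3.88 to 4.08 and was not compared.

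**Figure D1:**
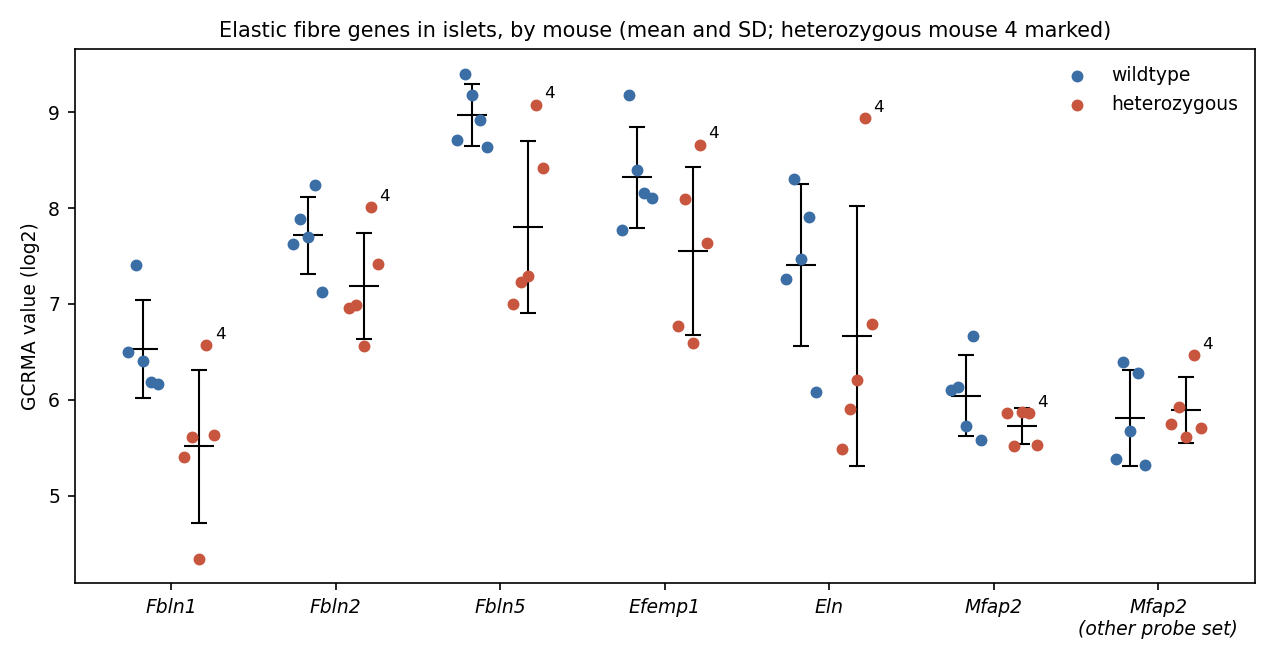
GCRMA values (log2, vertical axis) of the 7 member probe sets above the filter, with 1 point per mouse, wildtype in blue and heterozygous in red, and the mean with SD in black (n = 5 per genotype). For Fbln5 the heterozygous points spread from 7.00 to 9.08 around a mean below that of wildtype mice, and heterozygous mouse 4, marked, lies within or above the wildtype range for each of these genes.

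Eln, the elastin gene and the core of the fibre, had the widest spread. Probe set 1420855_at read 7.26, 8.31, 7.47, 7.91 and 6.08 in wildtype mice, and 5.49, 5.91, 6.21, 8.94 and 6.79 in heterozygous mice. The highest and the lowest of the 10 values both came from heterozygous mice, mouse 4 and mouse 1, and wildtype mouse 5 lay between heterozygous mice 2 and 3. The means were 7.41 ± 0.84 and 6.67 ± 1.36, and the difference of -0.74 (SE 0.62) had a 95% interval from -2.10 to 0.62. The other Eln probe set, 1420854_at, stayed at background, from 2.68 to 3.09.

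The microfibril genes gave less. Mfap2 encodes a small glycoprotein that sits on fibrillin microfibrils and has 2 probe sets above the filter, which disagree. The brighter, 1417359_at, stood at 6.11, 6.13, 5.73, 6.67 and 5.58 in wildtype and 5.86, 5.51, 5.87, 5.87 and 5.53 in heterozygous mice, a difference of -0.32 (SE 0.19; 95% interval -0.74 to 0.11). The other, 1447833_x_at, stood at 5.39, 6.40, 5.67, 6.28 and 5.32 in wildtype and 5.75, 5.93, 5.61, 6.47 and 5.71 in heterozygous mice, a difference of 0.083 (SE 0.24; 95% interval -0.45 to 0.62). The groups overlapped on both, and over the 10 mice the 2 probe sets correlated at r = 0.45.

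Mfap4, a microfibril-associated protein made by smooth muscle, was above 4 on 2 arrays only, wildtype mouse 1 at 4.96 and heterozygous mouse 4 at 4.79, and lay between 2.61 and 3.64 on the other 8. Mfap5, a relative of Mfap2, never reached 4. Its probe set 1418454_at read 2.67 to 2.99 in wildtype and 2.61 to 2.65 in heterozygous mice, a separation among background values to which no order is given. Its second probe set, 1449082_at, ran from 2.36 to 3.75. Apart from the 2 arrays where Mfap4 was above 4, these values set only an upper limit for both genes. No difference is reported for either.

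Over the 6 genes, with the brighter Mfap2 probe set, the mean was lower in heterozygous islets for 6 and the median difference was -0.76, where 43.6% of all 18567 probe sets compared were lower and their median was 0.022. By the limma fit over all probe sets, 0 members passed an adjusted p of 0.05, and each had adjusted p = 0.9999; 0.0% of all probe sets passed. At an unadjusted p under 0.05 there were 2 members, Fbln5 (0.0098) and Fbln1 (0.019), both lower, against 1.52% of all probe sets that were lower at that level and 4.09% in either direction. None of the 6 had groups without overlap (0.172% of probe sets did so with heterozygous mice lower), and for 2 of 6 at least 4 heterozygous mice lay below every wildtype mouse (1.49% of all). The members were chosen from this contrast, so these counts describe them and test nothing. The difference exceeded the SD of both genotypes for Fbln5 and Fbln1, and was smaller than the SD of at least 1 genotype for Efemp1, Fbln2, Eln and Mfap2.

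Of single mice, heterozygous mouse 4 moved the median furthest. Without it the median difference moved from -0.76 to -1.17, with Fbln5 at -1.49, Fbln1 at -1.28, Eln at -1.31, Efemp1 at -1.05, Fbln2 at -0.73 and Mfap2 at -0.35. Other mice made single values smaller: Eln stood at -0.45 without heterozygous mouse 1, and Mfap2 at -0.16 without wildtype mouse 4. Still no probe set passed over the whole table. Nothing in the labels sets this mouse apart, and it was kept.

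**Figure D2:**
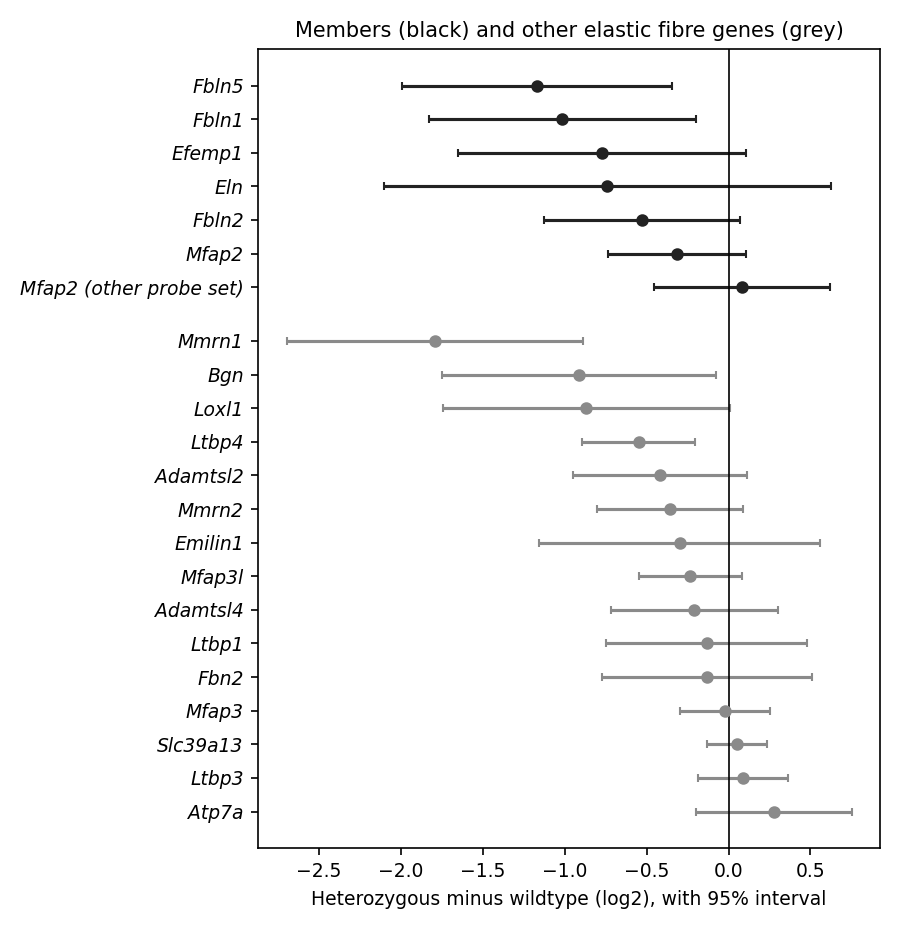
Heterozygous minus wildtype differences (log2, horizontal axis) with 95% intervals from the limma fit, for the 7 member probe sets in black and 15 other genes of elastic fibres and microfibrils in grey (n = 5 per genotype). Intervals of Fbln5 and Fbln1 lie below 0 before adjustment, those of Efemp1, Fbln2, Eln and both Mfap2 probe sets span 0, and none passes after adjustment over all probe sets.

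The same mice were high or low for most members. After each gene was centred on its mean over the 10 mice, heterozygous mice 1 and 3 were below the mean for all 6 genes, with average deviations of -0.87 and -0.98. Heterozygous mice 2 and 5 followed at -0.56 and -0.22, each above the mean for 1 gene. Heterozygous mouse 4 stood at 0.73, above the mean for 5 genes, and was exceeded only by wildtype mouse 2 at 0.93. The other wildtype mice stood at 0.21, 0.36, 0.56 and, for mouse 5, -0.17.

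**Figure D3:**
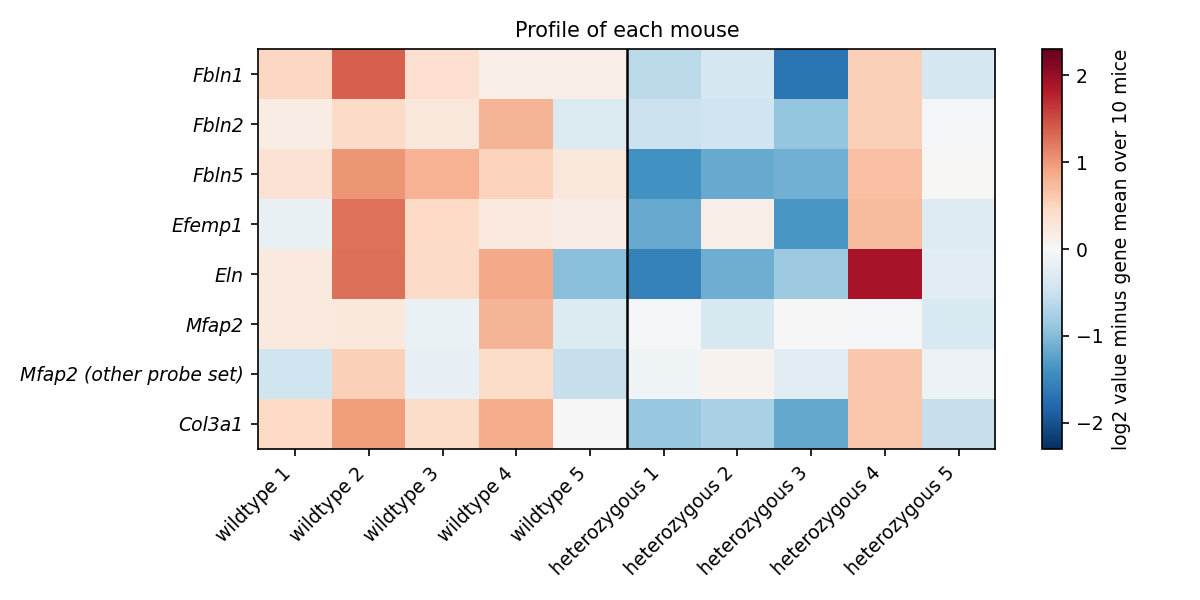
Log2 value of each member probe set and of Col3a1 minus its mean over the 10 mice (colour), with 1 column per mouse, wildtype left and heterozygous right of the line. Wildtype mouse 2 and heterozygous mouse 4 are red in most rows, and heterozygous mice 1 and 3 are blue in most rows. The Mfap2 rows are paler than the rest.

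Col3a1, a fibrillar collagen made by fibroblasts, served as the reference for this shared variation. It stood at 13.06, 13.56, 13.02, 13.44 and 12.60 in wildtype and 11.73, 11.86, 11.41, 13.24 and 12.06 in heterozygous mice (probe set 1427883_a_at). As for Fbln1 and Fbln5, 4 heterozygous mice lay below all wildtype mice and mouse 4 lay among them. Over the 10 mice Pearson's r with Col3a1 was 0.929 for Fbln2, 0.92 for Fbln5, 0.905 for Fbln1, 0.853 for Eln and 0.832 for Efemp1. Spearman's rho was 0.939, 0.879, 0.927, 0.855 and 0.855 in the same order. For these 5 genes the permutation p of r, adjusted over the 6 members, ran from 0.0003 to 0.00366 (unadjusted 7e-05 to 0.00305) and that of rho from 0.00084 to 0.00346 (unadjusted 0.00024 to 0.00288), from two-sided tests with 100000 permutations. Mfap2 gave r = 0.583 (permutation p = 0.0679, adjusted 0.0679) and rho = 0.588 (permutation p = 0.0802, adjusted 0.0802).

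A median r of 0.879 over the 6 members stood beside -0.0268 over the other 18566 probe sets, and 5 of 6 members reached 0.8, a level that 1.38% of probe sets reached. Since co-variation with Col3a1 was among the known properties of these genes here, the p-values are no independent evidence.

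**Figure D4:**
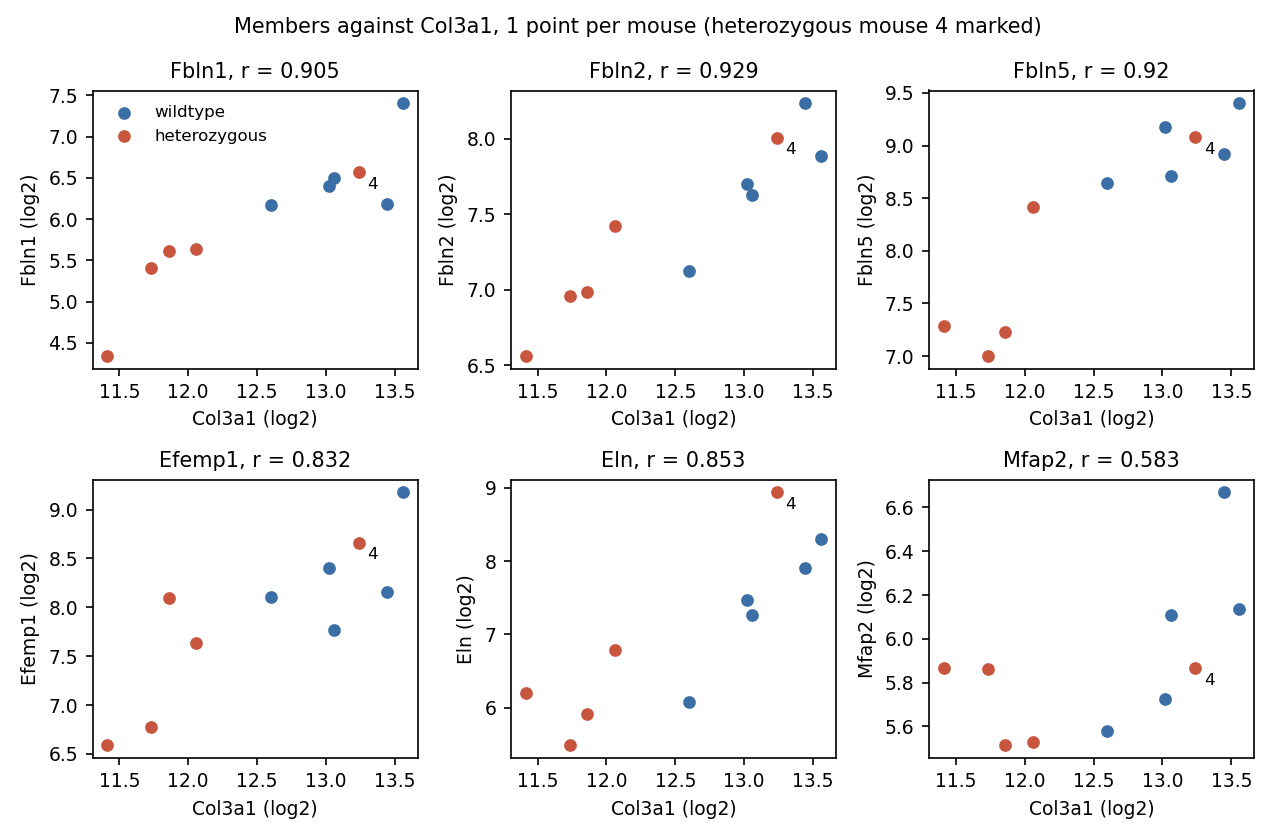
Value of each member (log2, vertical axis) against Col3a1 (log2, horizontal axis), 1 point per mouse, wildtype blue and heterozygous red. Fbln1, Fbln2, Fbln5, Efemp1 and Eln rise with Col3a1 (r from 0.832 to 0.929), heterozygous mouse 4 lies with the wildtype mice, and Mfap2 is more scattered (r = 0.583).

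Part of a pooled correlation can come from the distance between genotypes, since 4 heterozygous mice had less Col3a1 than the other 6 mice. With values centred within each genotype, r was 0.939 for Fbln2, 0.937 for Eln, 0.84 for Fbln5, 0.83 for Fbln1, 0.779 for Efemp1 and 0.395 for Mfap2. Permuting mice within genotype gave adjusted p from 0.00228 to 0.0186 for the first 5 and an adjusted permutation p of 0.186 for Mfap2. The second Mfap2 probe set, at 0.487 over all mice, reached 0.832 after centring. Centring leaves heterozygous mouse 4 high in Col3a1, at 13.24 where the mean of its genotype was 12.06. How far the centred values of r rest on this mouse was not tested. Without the 2 mice farthest from the median Col3a1 value, heterozygous mice 1 and 3, r was 0.867 for Fbln5, 0.865 for Fbln2, 0.844 for Fbln1, 0.827 for Eln, 0.79 for Mfap2 and 0.63 for Efemp1 (8 mice).

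**Figure D5:**
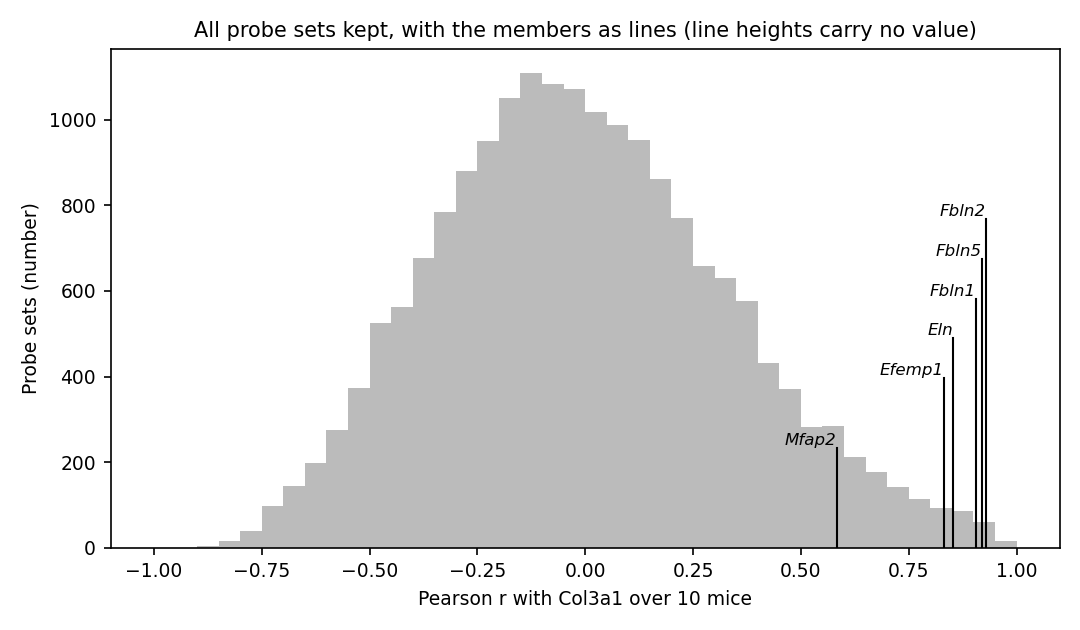
Number of probe sets (vertical axis) by Pearson r with Col3a1 over the 10 mice (horizontal axis, bins of width 0.05) for all probe sets compared, with the 6 members as black lines whose height carries no value. The median of all probe sets is -0.0268, and 5 members lie above 0.8 with Mfap2 at 0.583.

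A change of 1 in Col3a1 (log2) went with a fitted change of 1.24 in Eln, 1.05 in Fbln5, 0.963 in Fbln1, 0.849 in Efemp1, 0.638 in Fbln2 and 0.264 in Mfap2. With Col3a1 as a covariate in the fit, an alternative added after the data were seen, the genotype difference was 0.041 for Fbln1, 0.34 for Fbln2, 0.30 for Efemp1, 1.28 for Eln, -0.086 for Fbln5 and -0.069 for Mfap2. The median turned from -0.76 to 0.17, and no value passed the adjusted threshold. Col3a1 itself stood at -1.08 (SE 0.31) and did not pass over all probe sets either (limma adjusted p = 0.9999).

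Among themselves the members correlated from r = 0.163 (Efemp1 with Mfap2) to 0.898 (Fbln1 with Efemp1), with a median of 0.75 over 15 pairs. The 10 pairs without Mfap2 were all at 0.709 or above. Eln went most closely with Fbln2 (0.879) and Fbln5 (0.841), and less with Fbln1 (0.709). With values centred within each genotype, Eln stood at 0.891 with Fbln5, 0.874 with Fbln2 and 0.68 with Fbln1. The lowest of the 10 pairs without Mfap2 was then Fbln2 with Efemp1 (0.658), and Efemp1 with Mfap2 stood at -0.105. These values share the same 10 arrays and are given without a test.

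The genes most like the member average over the 10 mice, among 10509 genes that are neither members nor collagens, were Sparcl1 (r = 0.976), Anxa3 (0.976), Tgfb3 (0.975), Htra1 (0.973), Serpinf1 (0.971) and Sparc (0.97). Sparc and Sparcl1 encode matricellular proteins, Tgfb3 a transforming growth factor, Htra1 a secreted protease, Serpinf1 a secreted serpin, which is also among the fibroblast markers used here, and Anxa3 an annexin. Each was lower on average in heterozygous islets, from -0.54 (SE 0.27) for Sparc to -0.995 (SE 0.53) for Tgfb3, with mouse 4 in or above the wildtype range for Sparc, Sparcl1, Anxa3, Tgfb3, Htra1 and Serpinf1. Because these genes were picked for following the member average over the same mice, this pattern follows from the choice and is no separate result.

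Of 30 other genes of elastic fibres and microfibrils listed, 26 had a named probe set and 15 were compared, of which 12 were lower and 3 higher, with a median difference of -0.23. Over all probe sets compared, 43.6% were lower. The list was chosen with earlier results of these data known, so these counts describe it. None passed over all probe sets in either direction (limma adjusted p = 0.9999 for each). At an unadjusted limma p under 0.05 there were 3, all lower, beside 1.52% of all probe sets lower at that level and 4.09% in either direction. They were Ltbp4, Bgn, a small proteoglycan (-0.91, SE 0.38), and Mmrn1, a multimerin of platelets and endothelium (-1.79, SE 0.41). Bgn and Mmrn1 were named after their values were seen. Loxl1, a lysyl oxidase-like enzyme that crosslinks elastin and binds fibulin-5, averaged 5.54 ± 0.65 and 4.67 ± 0.78 in wildtype and heterozygous mice (-0.87, SE 0.40). Ltbp4, a latent TGF-beta binding protein that takes part in elastin assembly, stood at 8.63 ± 0.31 and 8.08 ± 0.19 (-0.55, SE 0.16). Of its relatives, Ltbp1 stood at -0.13 (SE 0.28) and Ltbp3 at 0.088 (SE 0.12); whether the genes differ from each other was not tested. The microfibril gene Fbn2 was at -0.13 (SE 0.29), and Emilin1, an elastin-associated glycoprotein, at -0.30 (SE 0.39). Lox and Ltbp2 lay under the filter, Lox with its brightest probe set above 4 in heterozygous mouse 4 alone (4.27), and Loxl2 was not analysed here.

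Markers of most other cell types listed were also mostly lower in heterozygous islets, where 43.6% of all probe sets compared were lower. Their part in the result was not tested. All 10 fibroblast markers, among them Col3a1, Dcn and Serpinf1, were kept and lower in heterozygous islets, with a median of -0.72. As Col3a1 was the reference used above, this list is not separate from it. Their mean per mouse ran from 10.11 to 10.91 in wildtype mice and from 9.29 to 10.71 in heterozygous mice, where mouse 4 held the 10.71. For pericytes and smooth muscle 8 of 10 markers were kept, all lower (median -0.41; 8.30 to 9.03 in wildtype, 7.47 to 9.17 in heterozygous mice), with Des and Cnn1 under the filter. Endothelial markers were lower for 8 of 9 kept, Pecam1 being under the filter (median -0.33; 7.80 to 8.33 against 7.38 to 8.01). Macrophage markers were lower for 7 of 8 kept, without Cd68 and Fcgr3 (median -0.38; 7.37 to 7.79 against 6.60 to 7.54). In these 4 lists 0 markers passed over all probe sets. Before adjustment, 9 of 10 fibroblast, 3 of 8 macrophage, 2 of 9 endothelial and 0 of 8 pericyte and smooth muscle markers had limma p under 0.05. Over all probe sets the share was 4.09% in either direction and 1.52% lower.

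Mesothelial markers were kept for 4 of 8, with Upk3b, Lrrn4, Wt1 and Muc16 under the filter. Of the 4, 3 were lower, with a median difference of -0.43 (5.74 to 7.06 against 6.06 to 6.37). Lymphocyte markers were kept for 3 of 8 named, with Cd3d, Cd3e, Cd3g, Cd2 and Cd79b under the filter, and the 3 were higher, reaching 5.42 and 5.22 in heterozygous mice 2 and 5 against 3.67 to 4.56 on the other 8 arrays. Leaving out those 2 mice gave a median member difference of -0.76 with 6 of 6 lower. Acinar markers, lower for 7 of 8 by a median of -0.025, ran from 15.80 to 16.26 in wildtype and from 15.57 to 16.06 in heterozygous mice, and duct markers, lower for 6 of 7, from 9.61 to 10.06 and from 9.30 to 9.79. Islet markers were bright in both genotypes, with Ins2 at 16.28 ± 0.073 and 16.23 ± 0.024, and 5 of 9 islet markers lower and 4 higher (median -0.031). Men1 itself was lower by a mean of -0.47 (SE 0.20; 6.89 ± 0.39 against 6.42 ± 0.30), which checks no label, since where its probes lie relative to the altered part was not stated.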

How the data were processed

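Total RNA (100 ng) of each mouse was amplified over 2 cycles to labelled cRNA, per the labels' protocols, which can enlarge differences between small samples. The authors deposited 1 log2 value per probe set and array, and the submitters' processing notes name GCRMA; the log2 scale was read from the values (0.65 to 17.58, array medians 3.28 to 3.40). GCRMA pulls dim probe sets to a common low value. Its version and the scanner were not stated.

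Probe sets were named through the platform annotation: 34958 carried 1 symbol, 932 several and 9211 none. Of 45037 without 64 controls, 18567 were kept. Arrays correlated at 0.962 to 0.988 over these. The number of arrays limits precision. The genotype difference was fitted with limma 3.58.1 (R 4.3.3) over all kept probe sets, without covariates, with Benjamini-Hochberg adjustment and two-sided tests. A gene was represented by its kept probe set with the highest mean. Probe levels of different genes were not compared. Scripts were tested on simulated data. Correlations used 100000 permutations (Python 3.11.15). Upstream sequences are RefSeq's.

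The members and lists were chosen with earlier results of these data known. Named genes were all members, Col3a1, Men1, a fixed set of 9 other elastic fibre genes and the 6 genes most like the member average; the alternatives were other filters, normalizations, variance priors and thresholds, left-out mice, a replicate block, acinar and Col3a1 covariates, gene averages, Dcn or the other Col3a1 probe set as reference, and centring within genotype.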

Additional observations from a re-analysis of the deposited data

Results flagged for a closer look

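Single mice stood far from the other 4 of their genotype in 14 of 58 groups of 5 examined. A chance rate of about 1 in 20 would hold for independent, normally distributed values only. Here the genes vary together, and many of the groups lie under the filter, where GCRMA compresses values. Tgfb3 and Htra1 were also picked for following the member average, in which heterozygous mouse 4 is high. The count is therefore not measured against that rate. Above the filter, wildtype mouse 2 was high for Fbln1 (7.41, the others 6.17 to 6.50). Heterozygous mouse 4 was high for Loxl1 (6.02, the others 4.10 to 4.57), Ltbp1 (5.39, the others 4.16 to 4.33), Tgfb3 (8.24, the others 5.47 to 6.05) and Htra1 (9.05, the others 7.84 to 8.15). Wildtype mouse 4 was high for Fbn2 (5.89, the others 4.93 to 5.20).

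The other 8 lay among probe sets under the filter. Mfap4 read 4.96 in wildtype mouse 1 and 3.56 to 3.64 in the others. Wildtype mouse 2 stood apart on 2 Fbln1 probe sets (2.46 and 3.32) and on the dim Eln probe set (3.09). Heterozygous mouse 4 stood apart on Fbln1 (2.76) and Mfap5 (2.87), heterozygous mouse 3 on Fbln1 (3.27) and heterozygous mouse 1 on Fbln5 (2.23).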

How the results depend on the processing

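No alternative called a probe set for genotype (0 in each of 20, with 508 to 1097 at an unadjusted p under 0.05, and 0 by limma at an adjusted threshold of 0.10), so the members' differences stay uncalled throughout. The median member difference ran from -1.17 to -0.53 when single mice were left out, with 6 of 6 lower each time. It was -0.63 over 8 genes without a filter, which adds the mostly background values of Mfap4 and Mfap5. It reversed with Col3a1 as a covariate, chosen after seeing the data, to 0.172, with Fbln1 at 0.0413, Fbln2 at 0.337, Efemp1 at 0.303 and Eln at 1.28; the cause was not tested. The count of members correlated with Col3a1 stayed at 5 or 6 in 19 alternatives, 1 of which put Dcn in its place. With Dcn the median r was 0.784, from 0.448 for Mfap2 and 0.661 for Eln to 0.909 for Efemp1. Under the stricter filter 5 of 5 passed. The sixth was Mfap2 without heterozygous mouse 3 (r = 0.681) and with its 2 probe sets averaged (r = 0.642). Without a filter 6 of 8 passed, Mfap2 not among them. The sixth was there Mfap5, whose brighter probe set lay at background on every array. Same-numbered mice of the 2 genotypes did not deviate together (r from -0.28 to 0.11, with 1 of 5 pairs closest to its own number). Whether they shared a batch was not tested. With a replicate block 0 probe sets were called. The median difference of -0.76 could not change, since each block holds 1 mouse of each genotype. The unadjusted limma p became 0.0428 for Fbln2, 0.039 for Efemp1, 0.0223 for Fbln1 and 0.0162 for Fbln5. For Eln it was 0.202 and for Mfap2 0.0903. GCRMA background limits Mfap4, Mfap5 and Lox to upper bounds.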
